A study of Mus musculus with 49 samples.

Results

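This report describes the messenger RNA of 6 enzymes of glycolysis, Aldoa, Tpi1, Pgk1, Pgam1, Eno1 and Ldha, in mouse B lineage cells on Affymetrix oligonucleotide arrays. The members were chosen by name, and a probe set (a group of short oligonucleotides that together read 1 transcript) was used when the platform annotation matched it to 1 of these genes alone. On the U74Av2 arrays 3 of the 6 genes had such a probe set, Tpi1 (99566_at), Pgk1 (93346_at) and Ldha (96072_at), among 9977 probe sets on 37 arrays. On the U74A arrays 5 of the 6 had one, with 6 probe sets among 12588 on 12 arrays. Here Aldoa was read by 93115_at and 98677_f_at and Pgam1 by 93123_at. Eno1 was matched alone by no probe set on either array and has no value.

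The study asked what happens to immature B cells when basal signaling by their surface immunoglobulin is removed. Cre-Mlo and Cre-Mhi cells came from marrow with the B1-8h, 3-83(kappa) and Mx-Cre alleles, which are a loxP-flanked heavy chain knock-in, a light chain knock-in and an interferon-inducible Cre recombinase. They were expanded in IL-7 (16 ng/ml), then held for 2 days without IL-7 in interferon (1000 units/ml). Sorting gave cells that had lost surface IgM (Cre-Mlo) or kept it (Cre-Mhi). The study's PCR assay found that part of the sorted Cre-Mhi cells had already deleted the heavy chain allele. Ctrl-Mhi cells had the same culture, interferon and IgM-high sort, from mice without Mx-Cre. B6-M- cells were IgM-negative B220+ cells of C57BL/6 marrow taken from the IL-7 culture, with no interferon step. FxD (B220+ CD43-negative IgM-negative pre-B) and FxE (B220+ IgM+ IgD-negative immature B) were sorted fresh from Balb/c marrow, and their RNA was amplified in 2 rounds before labeling. FxE HA and FxE Ctrl were fraction E cells of mice with a B cell-restricted Bcl-2 transgene, cultured with herbimycin A, an inhibitor of tyrosine kinases, or in medium alone. GFPpos and GFPneg cells were IL-7-expanded immature B cells of mice with a transgenic receptor for hen egg lysozyme (HEL-Ig) and GFP under Rag2 regulatory elements. GFPpos cells were IgM+ GFP+ after herbimycin A (400 ng/ml) and GFPneg cells were IgM+ GFP-negative after medium. The U74A arrays held HEL 48 h cells (HEL-Ig cells sorted as IgM-high and GFP+ after 48 h with the lysozyme antigen), Ctrl 48 h cells (GFP-negative, no antigen), HEL-Mhi cells (IL-7 culture, IgM high) and HEL-Mlo cells (sorted for low IgM). Mice were generally 4 to 8 weeks old.

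Groups held 3 arrays each, except 4 for Cre-Mlo, Cre-Mhi, Ctrl-Mhi and FxE Ctrl and 6 for FxE HA. The 4 arrays of each interferon group came from separate sorts. For the other samples the methods give 2 or 3 sorts, and no label ties an array to a sort, so their p-values measured the spread between arrays, which may in part be technical. Values were linear signals in arbitrary units, scaled within each array, with array medians of 345.9 to 544 on U74Av2 and 512.3 to 596.475 on U74A, HEL-Mlo aside. The HEL-Mlo arrays stood on another scale and were not tested against the rest. In each bulk sample, fewer cells of a type and less RNA per cell cannot be told apart.

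Glycolysis turns glucose into pyruvate in the cytosol. Aldolase A (Aldoa) splits fructose bisphosphate into a pair of triose phosphates, and triose phosphate isomerase (Tpi1) interconverts them. Phosphoglycerate kinase 1 (Pgk1) then makes ATP, phosphoglycerate mutase 1 (Pgam1) moves the remaining phosphate, enolase 1 (Eno1) makes phosphoenolpyruvate, and lactate dehydrogenase A (Ldha) turns pyruvate into lactate while restoring NAD+. In lymphocytes these genes are known for high expression during growth. Myc binds the E-box CACGTG at many of them, and the hypoxia-inducible factor HIF-1 binds sites with the core ACGTG or GCGTG.

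The promoters of the 3 genes measured on all U74Av2 arrays differ in these letters, and they are shown for that reason, with every ACGTG or GCGTG of either strand in capitals. Each is the stretch of 250 bases before the RefSeq transcript start, 5′ to 3′ on the gene's strand, in GRCm38.p6. The Ldha window lies at chr7:46845554-46845803 (plus strand), the Pgk1 window at chrX:106186850-106187099 (plus strand) and the Tpi1 window at chr6:124814159-124814408 (minus strand).
Ldha: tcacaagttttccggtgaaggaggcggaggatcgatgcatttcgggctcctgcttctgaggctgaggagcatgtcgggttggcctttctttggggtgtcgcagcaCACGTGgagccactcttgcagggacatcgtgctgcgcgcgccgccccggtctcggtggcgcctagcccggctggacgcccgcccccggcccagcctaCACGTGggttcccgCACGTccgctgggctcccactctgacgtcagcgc
Pgk1: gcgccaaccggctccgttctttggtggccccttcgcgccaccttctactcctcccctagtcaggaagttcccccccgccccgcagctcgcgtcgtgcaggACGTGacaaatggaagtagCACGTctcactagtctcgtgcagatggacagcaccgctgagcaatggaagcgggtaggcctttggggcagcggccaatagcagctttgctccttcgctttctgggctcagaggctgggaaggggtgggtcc
Tpi1: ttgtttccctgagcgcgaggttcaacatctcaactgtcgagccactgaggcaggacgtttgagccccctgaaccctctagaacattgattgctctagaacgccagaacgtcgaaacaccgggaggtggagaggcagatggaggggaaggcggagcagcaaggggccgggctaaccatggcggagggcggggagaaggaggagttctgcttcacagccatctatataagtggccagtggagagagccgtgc
The Ldha window held CACGTG 2 times. This palindrome contains ACGTG on both strands, so its counts overlap. The Pgk1 window held ACGTG 2 times without a CACGTG, and the Tpi1 window held none of these letters. Of 32851 promoter windows of the same length, 6.02% held CACGTG, 16.6% held ACGTG, 28.2% held GCGTG and 38.6% held at least one of the HIF-1 cores. A second RefSeq start of Ldha had a window without CACGTG. A match is a description of the letters only.

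All 3 genes ranked high on every U74Av2 array. Within an array Ldha stood at the 91.4th percentile of probe sets or above, Pgk1 at the 86.4th or above and Tpi1 at the 84.1st or above. For Ldha the group means ran, from high to low, B6-M-, GFPneg, Ctrl-Mhi, GFPpos, Cre-Mhi, FxE HA, Cre-Mlo, FxE, FxD and FxE Ctrl. Of these neighbors, B6-M- and GFPneg had ranges that did not overlap, nor did FxE and FxD, and all other neighbors overlapped. For Pgk1 the order was B6-M-, GFPneg, FxD, FxE HA, GFPpos, Ctrl-Mhi, FxE, FxE Ctrl, Cre-Mhi and Cre-Mlo, and every pair of neighbors overlapped. For Tpi1 it was B6-M-, FxE HA, GFPneg, GFPpos, FxE Ctrl, Ctrl-Mhi, FxD, Cre-Mhi, Cre-Mlo and FxE, again with all neighbors overlapping. Groups of different experiments also differed in strain, culture and RNA amplification. In these orders such differences cannot be told apart from cell state.

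**Figure D1:**
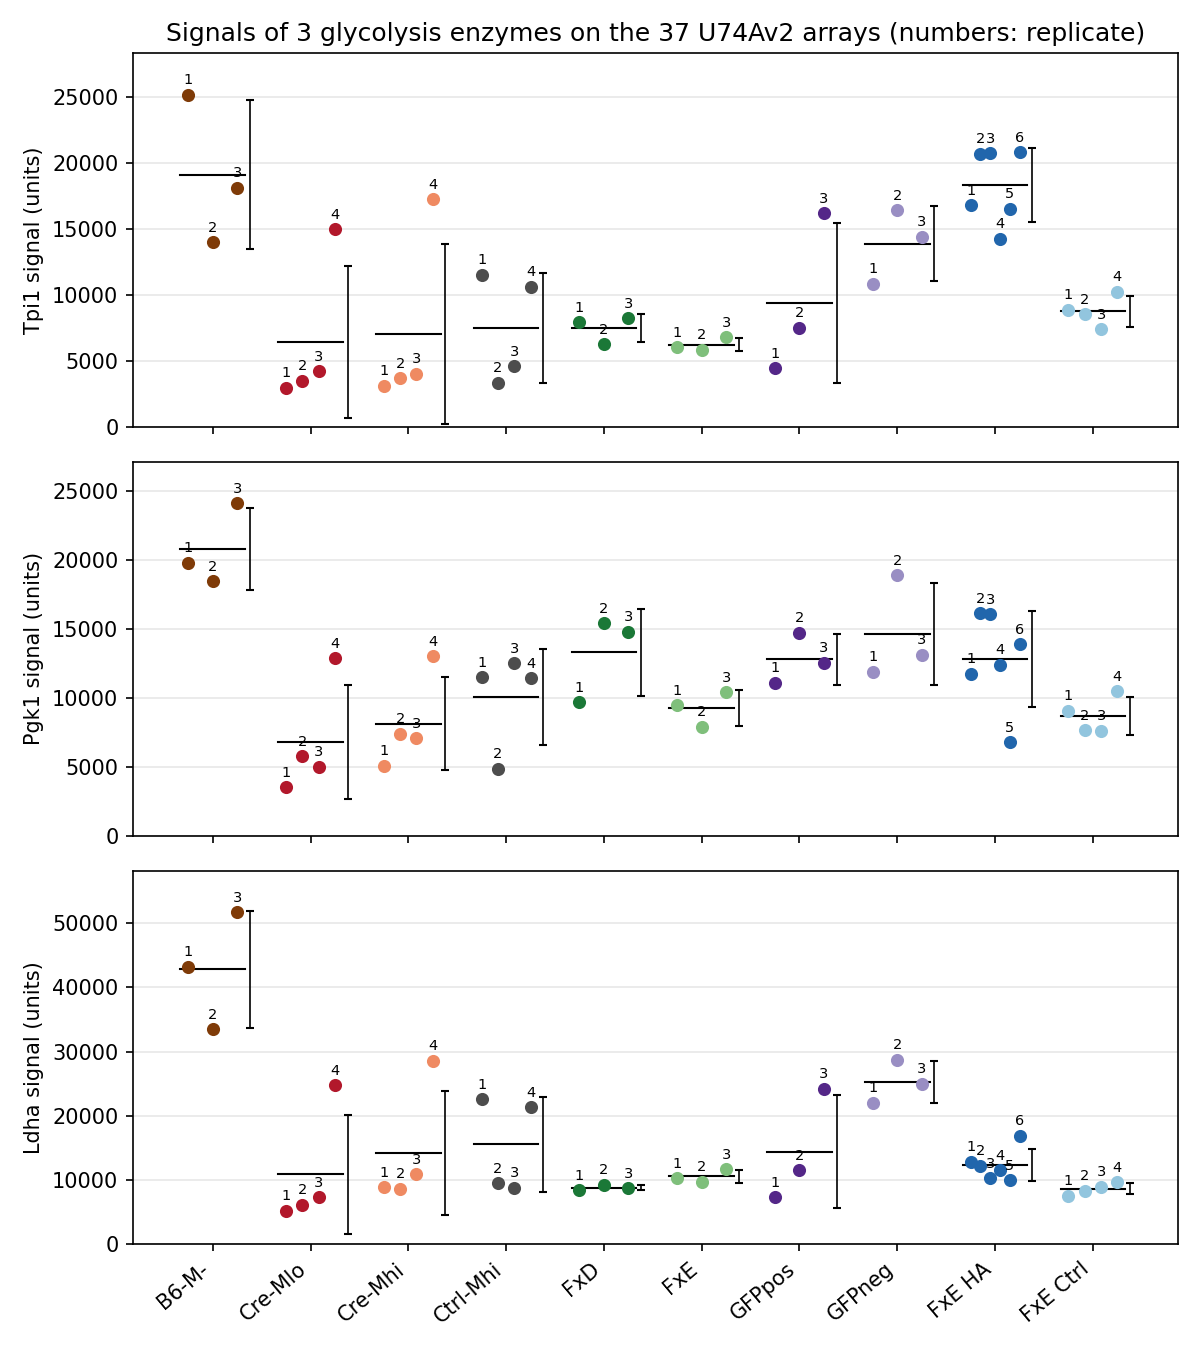
Signal in arbitrary units (linear axis from 0) of Tpi1, Pgk1 and Ldha on each of the 37 U74Av2 arrays, with the replicate number above each point, a horizontal line at the group mean and a bar of 1 SD on each side. The B6-M- arrays are the highest group for all 3 genes, and array 4 of Cre-Mlo and of Cre-Mhi lies far above the other 3 arrays of its group.

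B6-M- cells, cultured progenitors without surface IgM, had higher Ldha than Ctrl-Mhi cells by 2.97-fold. Ldha signals were 43206, 33498 and 51668 in B6-M- cells, against 22601, 9518, 8789.9 and 21335 in Ctrl-Mhi cells. Every B6-M- array was above every Ctrl-Mhi array, and among the Ctrl-Mhi arrays 1 and 4 were over 2 times arrays 2 and 3. The log2 difference was 1.57 (SE 0.41, 95% interval 0.60 to 2.55), and Ldha rose with an adjusted p of 0.0489 (limma). It was 1 of 3 members called, against 14.2% of all probe sets.

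Tpi1 and Pgk1 did not pass in that comparison. Their ranges did not overlap either. The share of all probe sets without overlap was not counted in any comparison, so non-overlap is a description only. Tpi1 signals were 25174, 13990.1 and 18119 in B6-M- cells and 11528, 3316, 4563 and 10618 in Ctrl-Mhi cells. Its log2 difference was 1.50 (95% interval 0.31 to 2.69, adjusted p = 0.0969). Pgk1 signals were 19810.5, 18495 and 24130.1 in B6-M- cells and 11506, 4846, 12498 and 11412 in Ctrl-Mhi cells, a log2 difference of 1.13 (95% interval 0.28 to 1.98, adjusted p = 0.0843). The low Ctrl-Mhi array was replicate 2 for both genes. The Ldha call ended without any 1 of the B6-M- arrays or without Ctrl-Mhi 2, 3 or 4, and its adjusted p ranged from 0.0220 to 0.147 over all alternatives. Without Ctrl-Mhi 2 the gene called was Pgk1.

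Of 13 other glycolysis enzymes 1 rose and 0 fell in the same comparison, a share below the 14.2% of all probe sets called. It was Pfkp (phosphofructokinase, platelet type), with mean signals of 811 in B6-M- and 376 in Ctrl-Mhi cells (log2 1.15, adjusted p = 0.0251). The median log2 difference of the 13 was 0.32, against -0.13 over all probe sets. Pkm, the pyruvate kinase of proliferating cells, averaged 32829 units in B6-M- and 14928 in Ctrl-Mhi cells and did not pass (log2 1.18, adjusted p = 0.0528). Of 7 transporters and regulators 3 rose and 0 fell. They were Pdk1 (log2 2.27) and Pdk3 (1.07), kinases that switch off pyruvate dehydrogenase, and Slc16a1 (1.60), a lactate carrier. The median of the 7 was 0.48. Of 8 genes in the list of Myc and its targets 7 rose and 0 fell, among them Myc (log2 2.13) and the nucleolar protein Ncl (1.44). Of 11 hypoxia targets 2 rose and 0 fell, Vegfa (log2 2.08) and Egln1 (1.18), and the median of the 11 was 0.19.

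Other features differed between the same 2 groups. Strain, transgenes, IL-7 and interferon all differed between them and cannot be told apart. The summed signal of 9 cell division genes was 103270 to 134493 in B6-M- and 29829 to 68101 in Ctrl-Mhi cells. Among 5 erythroid markers 1 was called, Car2, which rose (log2 2.39, means 6806 in B6-M- and 1297 in Ctrl-Mhi cells). The median of the 5 was 0.21, with summed signals, Car2 included, of 6437 to 8987 in B6-M- and 1730.1 to 2702 in Ctrl-Mhi cells, and among 3 B cell markers Ptprc fell by 2.03 on the log2 scale. The part of these in the Ldha difference was not tested.

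Loss of surface IgM did not give a call for any of the 3 enzymes. Cre-Mlo cells were compared with Ctrl-Mhi cells and with Cre-Mhi cells of the same cultures, and 0 of 3 members passed in either, against 8.33% and 6.08% of all probe sets (limma). At an unadjusted p under 0.05 the counts of members were 0 as well, against 20.9% and 17.4% of all probe sets. Ldha signals were 5271, 6196, 7312 and 24742 in Cre-Mlo cells, 8867, 8644, 10875 and 28562 in Cre-Mhi cells and 22601, 9518, 8789.9 and 21335 in Ctrl-Mhi cells. In both Cre groups 3 arrays were close together and replicate 4 was far above them. The log2 difference of Ldha in Cre-Mlo was -0.69 against Ctrl-Mhi (95% interval -1.94 to 0.55, adjusted p = 0.555) and -0.50 against Cre-Mhi (-1.75 to 0.74, adjusted p = 0.727).

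Tpi1 had the widest spread. Its signals were 2952, 3487, 4216 and 14985 in Cre-Mlo cells and 3089, 3691, 4014 and 17232 in Cre-Mhi cells, so replicate 4 was 5.08 and 5.58 times the lowest array of its group. The log2 difference of Tpi1 in Cre-Mlo was -0.38 against Ctrl-Mhi (95% interval -1.87 to 1.12) and -0.07 against Cre-Mhi (-1.56 to 1.42). Pgk1 signals were 3504, 5772, 5003 and 12873 in Cre-Mlo cells and 5065, 7399, 7073 and 13013 in Cre-Mhi cells, with the same replicate highest. Its log2 difference was -0.65 against Ctrl-Mhi (95% interval -1.63 to 0.33) and -0.35 against Cre-Mhi (-1.33 to 0.63).

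Same-numbered Cre-Mlo and Cre-Mhi arrays deviated together over probe sets with a mean signal of at least 500 (r 0.177 to 0.474). They were read as pairs. The intervals, adjusted p-values and counts at an unadjusted p given above for Cre-Mlo against Cre-Mhi came from the limma fit without pairs. The Cre-Mlo to Cre-Mhi ratio of Ldha was 0.594, 0.717, 0.672 and 0.866 in pairs 1 to 4, below 1 in 4 of 4. For Pgk1 the ratios were 0.692, 0.780, 0.707 and 0.989, and for Tpi1 0.956, 0.945, 1.05 and 0.870. With the pair as a block in a fit of these 2 groups, no enzyme passed, and 200 of 9977 probe sets did. The adjusted p was then 0.163 for Ldha, 0.292 for Pgk1 and 0.787 for Tpi1 (limma). Without replicate 4 of both groups the Ldha difference was -0.60 (adjusted p = 0.507), and Tpi1 was at -0.03. Leaving out Cre-Mhi 4 alone turned the Tpi1 difference to 0.50, and leaving out Cre-Mlo 4 alone put it at -0.59.

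Cre-Mhi cells shared the culture with Cre-Mlo and kept surface IgM, though part of them had already deleted the heavy chain allele. They had 0 of 3 members called against Ctrl-Mhi cells, with 0.02% of all probe sets called and 711 at an unadjusted p under 0.05. The log2 differences were -0.19 for Ldha (95% interval -1.43 to 1.05), -0.30 for Pgk1 (-1.28 to 0.68) and -0.31 for Tpi1 (-1.80 to 1.19).

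The rest of the pathway gave few calls with receptor loss. None of the 13 other glycolysis enzymes passed in Cre-Mlo cells against either group, with a median log2 difference of 0.23 against Ctrl-Mhi (-0.04 over all probe sets) and -0.04 against Cre-Mhi (-0.03). The median of Tpi1, Pgk1 and Ldha was -0.65 against Ctrl-Mhi and -0.35 against Cre-Mhi. Of the 7 transporters and regulators Slc16a1 rose against Cre-Mhi, with mean signals of 417 in Cre-Mlo and 63.4 in Cre-Mhi cells (log2 3.12, adjusted p = 0.00626). Against Ctrl-Mhi its adjusted p was 0.0828. Of 11 hypoxia targets 2 rose against Ctrl-Mhi (8.33% of all probe sets called in either direction), Adm, which encodes the peptide adrenomedullin (log2 2.54, means 497 in Cre-Mlo and 91.0 in Ctrl-Mhi), and Ndrg1 (log2 1.60, means 1975 in Cre-Mlo and 682 in Ctrl-Mhi). Against Cre-Mhi (6.08% called) Ndrg1 rose (1.53), and Adm did not pass (log2 1.05, adjusted p = 0.108). In the list for pyruvate dehydrogenase and the TCA cycle 3 of 15 rose against Ctrl-Mhi, the dehydrogenase subunits Pdha1 and Pdhb and the succinyl-CoA ligase subunit Sucla2. Fh1, fumarate hydratase, was among 2 that fell (by 0.57 on the log2 scale). Against Cre-Mhi 1 of the 15 rose, Pdhb, and 1 fell, Fh1. In the list of Myc and its targets 1 of 8 fell against Ctrl-Mhi, Cad, an enzyme of pyrimidine synthesis (by 1.38), and 2 of 8 against Cre-Mhi, Cad (by 1.33) and Myc (by 1.17).

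**Figure D2:**
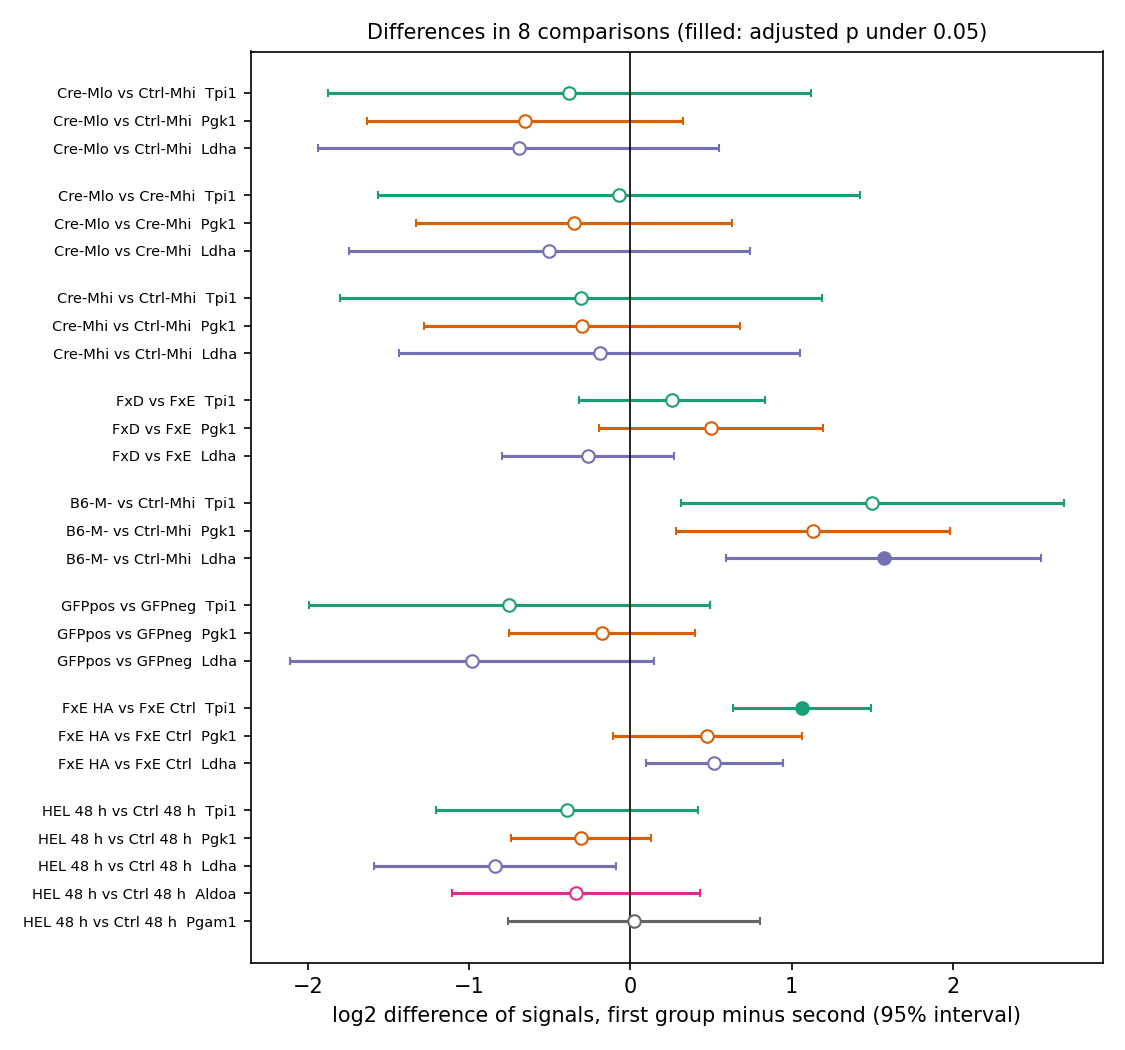
Log2 difference (first group minus second) with its 95% interval for each measured enzyme in 8 comparisons, with filled points for adjusted p under 0.05. The filled points are Ldha in B6-M- against Ctrl-Mhi (1.57) and Tpi1 in FxE HA against FxE Ctrl (1.07), and the intervals of the Cre comparisons all cross 0. All intervals come from fits without pairs.

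In the 3 interferon groups the spread between arrays was large for these genes. The SD of log2 signal among Cre-Mlo arrays was 1.07 for Tpi1, 1.02 for Ldha and 0.79 for Pgk1, against a median of 0.18 over 4934 probe sets. These values lay at the 99.6th, 99.5th and 98.6th percentile. Among Cre-Mhi arrays the same SDs were 1.15, 0.81 and 0.56 (median 0.23), and among Ctrl-Mhi arrays 0.89, 0.73 and 0.64 (median 0.22). Among GFPpos arrays the SD was 0.94 for Tpi1 and 0.87 for Ldha (median 0.22) but 0.20 for Pgk1. In other cultured groups the spread was mixed. Pgk1 in HEL-Mhi cells had an SD of 0.62 (median 0.18, 96.9th percentile). In B6-M- cells Tpi1 was at the 90.1st percentile (SD 0.42) and Pgk1 at the 51.3rd (0.20). The fraction D and E groups were mostly tighter relative to their own probe sets. In FxE and FxE Ctrl cells all 3 enzymes were below the group's median SD, and in FxE Ctrl cells the SD was 0.19 for Tpi1, 0.15 for Ldha and 0.22 for Pgk1, against a median of 0.31. In FxE HA cells Tpi1 (0.23) and Ldha (0.27) were below the median of 0.38 and Pgk1 (0.46) above it. In FxD cells Tpi1 (0.21) and Ldha (0.07) were below the median of 0.36 and Pgk1 (0.37) just above it.

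The enzymes deviated on the same arrays. After group means were taken off, Ldha and Tpi1 had a Pearson r of 0.94 over the 37 arrays, Pgk1 and Tpi1 0.70 and Pgk1 and Ldha 0.66, as a description of probe sets read on shared arrays. Cre-Mlo 4 and Cre-Mhi 4 were the highest arrays relative to their groups for all 3 genes. For Tpi1 they stood 1.57 and 1.70 log2 units above the group mean. GFPpos 3 came next for Tpi1 (0.99) and Ldha (0.93) but was at -0.02 for Pgk1. On Cre-Mlo 4 and Cre-Mhi 4 the summed erythroid and myeloid markers were within the range of the other arrays or below it. The summed cell division signal was 40442 on Cre-Mlo 4 against 18413 to 29589 on the other Cre-Mlo arrays, and 63110.3 on Cre-Mhi 4 against 23700.2 to 45533 on the other Cre-Mhi arrays. Ctrl-Mhi 2, the lowest Ctrl-Mhi array for Pgk1 and Tpi1, had 68101, against 29829 to 39828 on the other Ctrl-Mhi arrays. GFPpos 3 had 35391, between GFPpos 1 (13297) and GFPpos 2 (42572). The part of cell division in the enzyme signals was not tested.

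**Figure D3:**
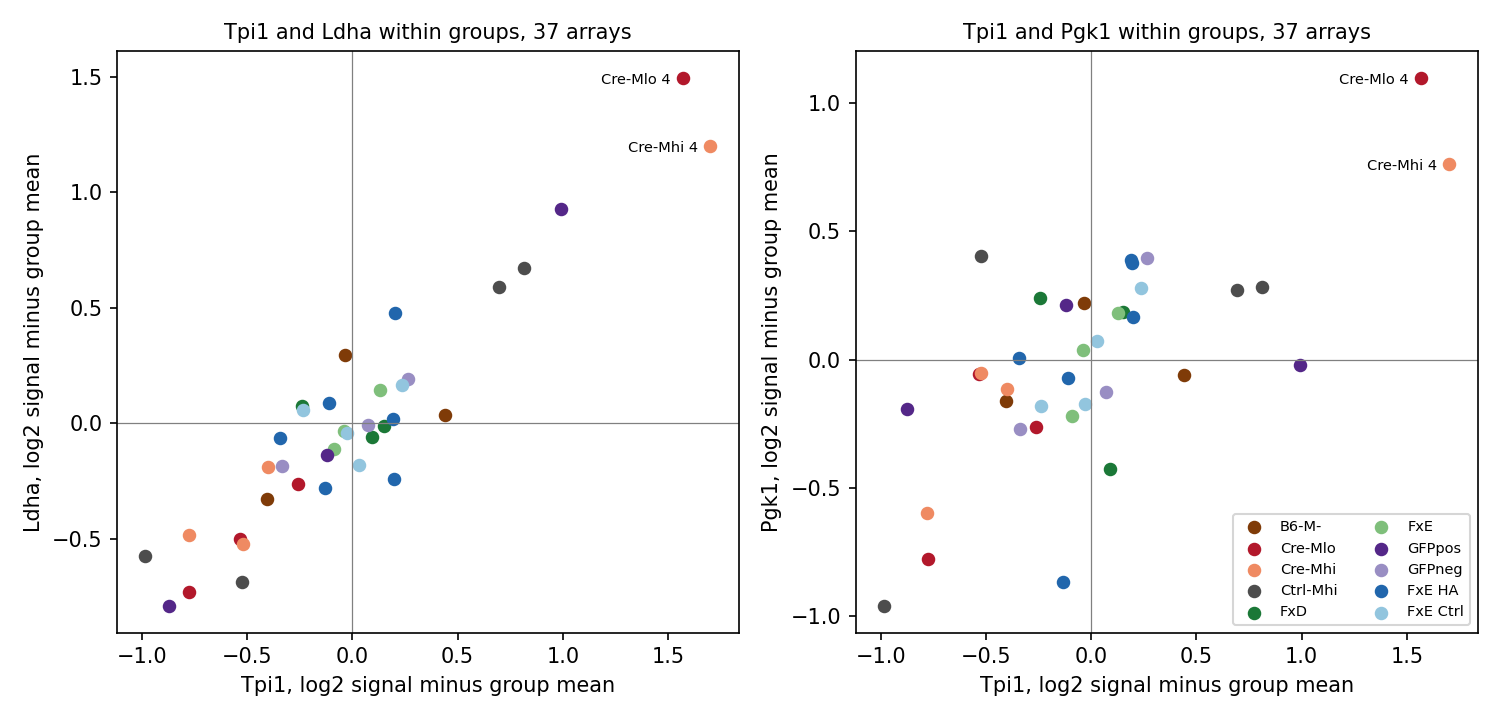
Each point is 1 of the 37 U74Av2 arrays, placed by its log2 signal minus the mean of its group, for Tpi1 against Ldha and for Tpi1 against Pgk1, with colors for the 10 groups. Cre-Mlo 4 and Cre-Mhi 4 lie at the upper right in both panels, and the points lie closer to 1 line for Ldha (r 0.94) than for Pgk1 (r 0.70).

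The genes most like the 3 enzymes were sought among 4507 probe sets with a mean signal of at least 500, by Pearson r with the mean of the enzymes' standardized log2 signals over 37 arrays. They were Pfkl, the liver type phosphofructokinase (r 0.78), Pkm (0.73), the oxygen sensor Egln1 (0.69), the nucleoside transporter Slc29a1 (0.68), Pmf1 (0.65) and the collagen prolyl hydroxylase subunit P4ha1 (0.62). After group means were taken off the list was Bnip3, a mitophagy receptor (0.77), Pkm (0.71), Pfkp by both of its probe sets (0.70 and 0.59), Pfkl (0.69) and P4ha1 (0.62). All probe sets share the same arrays, and these r values carry no test.

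Pkm and Bnip3 were high on the same arrays as the enzymes. They were picked for likeness over arrays that include these, so the match follows from the choice and is not separate support. Pkm signals were 6422, 6989, 5525 and 18038 in Cre-Mlo cells and 8223, 7633, 6434 and 20189 in Cre-Mhi cells. Bnip3 signals were 1391, 1539, 1512 and 3897 in Cre-Mlo cells and 668, 604, 866 and 2658 in Cre-Mhi cells. Replicate 4 was the highest array of each group for both genes.

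**Figure D4:**
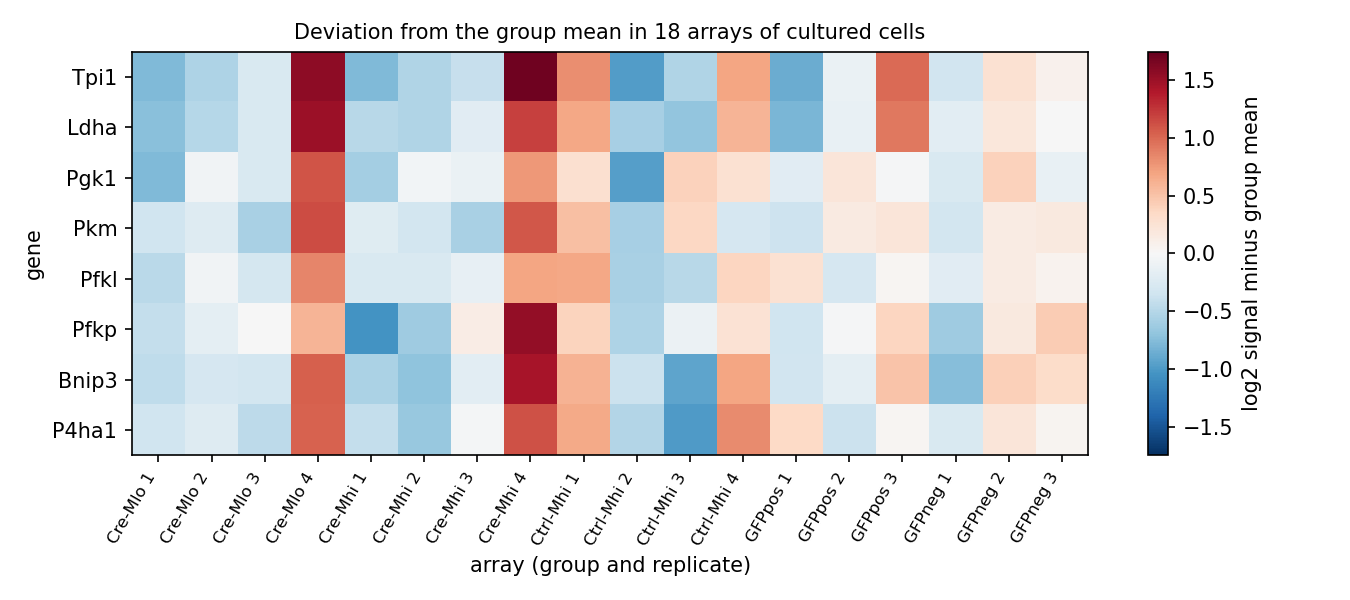
Log2 signal minus group mean (color scale, red above and blue below) of Tpi1, Ldha, Pgk1 and 5 of the genes most like them, Pkm, Pfkl, Pfkp, Bnip3 and P4ha1, in 18 arrays of cultured cells. The columns of Cre-Mlo 4 and Cre-Mhi 4 are red in all 8 genes, and Tpi1 reaches 1.57 and 1.70 there. The 5 genes were picked for likeness over arrays that include these columns.

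In fresh marrow none of the enzymes passed between the pre-B stage and the immature stage. FxD, the earlier stage without surface IgM, had 0 of 3 members called against FxE, with 3% of all probe sets called (limma). Ldha signals were 8453, 9265 and 8730.2 in FxD and 10298, 9778 and 11674 in FxE cells, with every FxD array below every FxE array. The log2 difference was -0.26 (95% interval -0.79 to 0.27, adjusted p = 0.703). Pgk1 signals were 9696, 15409 and 14822 in FxD and 9458, 7908 and 10432 in FxE cells, a difference of 0.50 (-0.19 to 1.20, adjusted p = 0.530). Tpi1 was at 7896, 6267 and 8222 in FxD and 6029, 5824 and 6779 in FxE cells, a difference of 0.26 (-0.32 to 0.83).

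In the same comparison 8 of 9 cell division genes rose, with a median log2 difference of 2.96 against 0.04 over all probe sets. The median of the 3 enzymes was 0.26. None of the 13 other glycolysis enzymes passed. Marker signals of other cells were high in both stages. The summed signal of 5 erythroid markers was 60446 to 121791 in FxD and 116991 to 160920 in FxE cells, and that of 10 myeloid markers 36784 to 78406.0 in FxD and 67414 to 278838 in FxE cells. Their part in the enzyme values was not tested. The change with receptor loss was also set against the change between stages, as Cre-Mlo minus Ctrl-Mhi less FxD minus FxE. With 3.64% of all probe sets called, 0 of 3 members passed, and Pgk1 gave the largest of the 3 differences, -1.15 (95% interval -2.46 to 0.16, adjusted p = 0.409).

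Tpi1 rose with herbimycin A in fraction E cells of Bcl-2 transgenic mice. Tpi1 signals in FxE HA cells were 16782, 20678, 20741, 14259.5, 16527 and 20804, against 8862, 8519.9, 7368 and 10226 in FxE Ctrl cells. All 6 treated arrays were above all 4 arrays of cells in medium. The mean was 18299 ± 2816 (SD, n = 6) in FxE HA and 8744 ± 1176 (SD, n = 4) in FxE Ctrl cells. In a fit with hours of culture as a term, Tpi1 rose 2.09-fold, a log2 difference of 1.07 (SE 0.19, 95% interval 0.64 to 1.49, limma adjusted p = 0.0147). The hours came from a legend of the study by replicate number, and without them the difference was 1.06 (adjusted p = 0.0174). Tpi1 was 1 of 3 members called, against 3.37% of all probe sets. The call ended without FxE Ctrl 1 (adjusted p = 0.0597) or FxE Ctrl 2 (0.0713).

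Ldha and Pgk1 did not pass under the same treatment. Ldha ran from 9983 to 16882 with a median of 11920.2 in FxE HA cells, against 7607, 8381, 8987 and 9664 in FxE Ctrl cells. The ranges did not overlap, and the log2 difference was 0.52 (95% interval 0.10 to 0.94, adjusted p = 0.208). Pgk1 ran from 6774 to 16172 with a median of 13145 in FxE HA cells, against 9063, 7647, 7613 and 10466 in FxE Ctrl cells, a difference of 0.48 (-0.11 to 1.06, adjusted p = 0.444). The lowest Pgk1 signal of both groups was that of FxE HA 5, whose Tpi1 signal was 16527. With the same hours, the effect at 48 h less that at 24 h was 0.05 for Tpi1 (95% interval -0.87 to 0.98), -0.07 for Ldha (-0.99 to 0.85) and -0.63 for Pgk1 (-1.80 to 0.55). In that test 0% of probe sets passed with limma, and 478 had an unadjusted p under 0.05.

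Pfkp was the 1 of 13 other glycolysis enzymes that rose with herbimycin A, with means of 3808 in FxE HA and 1683 in FxE Ctrl cells (log2 1.10, adjusted p = 0.0245), and 0 fell. The median of the 13 was 0.27, against 0.07 over all probe sets and 0.52 for the 3 enzymes. Of 11 hypoxia targets P4ha1 rose, with means of 2286 in FxE HA and 556 in FxE Ctrl cells (log2 1.94, adjusted p = 0.000329). Taldo1, transaldolase of the pentose phosphate pathway, rose by 0.95. None of the 7 transporters and regulators passed. Among 5 erythroid markers 1 was called, Car2, which rose (log2 2.21, means 15330 in FxE HA and 3594 in FxE Ctrl cells). Of the 5 differences 2 were above 0, their median was -0.06, and the summed signals, Car2 included, were 13401 to 42329 in FxE HA and 5737 to 14875 in FxE Ctrl cells. The summed myeloid signal was 28114 to 136396 in FxE HA and 29643 to 129611 in FxE Ctrl cells. Ptprc, 1 of 3 B cell markers, fell by 1.13 on the log2 scale. The part of these in the Tpi1 difference was not tested.

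In HEL-Ig cells, where herbimycin A and the GFP sort differed together, no enzyme was called, and 1 array stood apart. Ldha signals were 7342, 11577 and 24236 in GFPpos cells, against 22055, 28703 and 24999 in GFPneg cells. GFPpos 1 and GFPpos 2 were below all GFPneg arrays, and GFPpos 3 was among them. The log2 difference was -0.98 (95% interval -2.11 to 0.15, adjusted p = 0.295). Tpi1 signals were 4437, 7487 and 16182 in GFPpos and 10832, 16417 and 14383 in GFPneg cells, with the same array high (difference -0.75, 95% interval -1.996 to 0.50, adjusted p = 0.461). Pgk1 overlapped widely, at 11112, 14744 and 12542 in GFPpos and 11899.6, 18897 and 13147 in GFPneg cells (difference -0.17, 95% interval -0.75 to 0.40).

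With limma 0 of 3 members were called in that comparison, against 2.59% of all probe sets. Without GFPpos 3 the difference was -1.45 for Ldha (adjusted p = 0.114) and -1.25 for Tpi1 (0.166). None of the 13 other glycolysis enzymes passed, and none of the 7 transporters and regulators. The glucose transporter genes Slc2a1 (log2 -1.57, adjusted p = 0.134) and Slc2a3 (-0.80, adjusted p = 0.0880) did not pass. Pdha1 rose (log2 1.43). The summed cell division signal was 13297 to 42572 in GFPpos and 89449 to 140357 in GFPneg cells, and its part in the enzyme values was not tested.

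The herbimycin A effects in the 2 kinds of cells were compared directly, as GFPpos minus GFPneg less FxE HA minus FxE Ctrl. For Tpi1 this difference was -1.82 (SE 0.49, 95% interval -2.88 to -0.75, adjusted p = 0.125, limma), for Ldha -1.50 (-2.48 to -0.51, adjusted p = 0.177) and for Pgk1 -0.61 (-1.41 to 0.20, adjusted p = 0.569). Thus 0 of 3 members passed, against 0.772% of all probe sets. Without GFPpos 3 both Tpi1 (-2.32, adjusted p = 0.0240) and Ldha (-1.96, adjusted p = 0.0315) passed. Mouse line, culture before treatment and sort differed between the cell kinds and cannot be told apart. Against receptor loss, GFPpos minus GFPneg less Cre-Mlo minus Ctrl-Mhi was -0.29 for Ldha (95% interval -2.03 to 1.45), -0.37 for Tpi1 (-2.30 to 1.56) and 0.48 for Pgk1 (-0.83 to 1.78). There 0 of 3 members passed, against 0.381% of all probe sets. Mouse line, time of treatment and sort differed between these effects and cannot be told apart.

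On the U74A arrays, antigen for 48 h was the comparison that read 5 of the enzymes. Antigen and the GFP sort differed together in it and cannot be told apart. With limma 0 of the 5 genes passed, against 0.23% of all probe sets. Ldha signals were 6854, 10347 and 9408 in HEL 48 h cells and 15981, 20902 and 11392 in Ctrl 48 h cells. Every HEL 48 h array was below every Ctrl 48 h array, and the log2 difference was -0.84 (SE 0.31, 95% interval -1.59 to -0.087, adjusted p = 0.388). Pgk1 signals were 5588, 5572 and 5614 in HEL 48 h cells and 6667, 7039 and 7033 in Ctrl 48 h cells, a narrow spread without overlap. Its difference was -0.31 (-0.74 to 0.13, adjusted p = 0.558). Tpi1 was at 2887, 4766 and 5038 in HEL 48 h and 4362, 7441 and 4851 in Ctrl 48 h cells, with overlap (difference -0.39, -1.21 to 0.42).

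Aldoa and Pgam1 had lower signals than Ldha, Pgk1 and Tpi1, and overlapping groups. By 93115_at Aldoa was at 607, 880.4 and 1265 in HEL 48 h and 1256, 1088 and 999 in Ctrl 48 h cells (log2 difference -0.34, 95% interval -1.10 to 0.43). By 98677_f_at, whose suffix marks a probe set shared within a gene family, it was at 674, 399 and 343 in HEL 48 h and 682, 595 and 708 in Ctrl 48 h cells (difference -0.55, -1.29 to 0.19). Replicate 1 was the lowest HEL 48 h array for the first probe set and the highest for the second. Pgam1 was at 422, 403 and 637 in HEL 48 h and 341, 629 and 479.6 in Ctrl 48 h cells (difference 0.02, -0.76 to 0.81). None of the 14 other glycolysis enzymes passed, and of 12 hypoxia targets Adm rose, with means of 2723 in HEL 48 h and 98.9 in Ctrl 48 h cells.

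**Figure D5:**
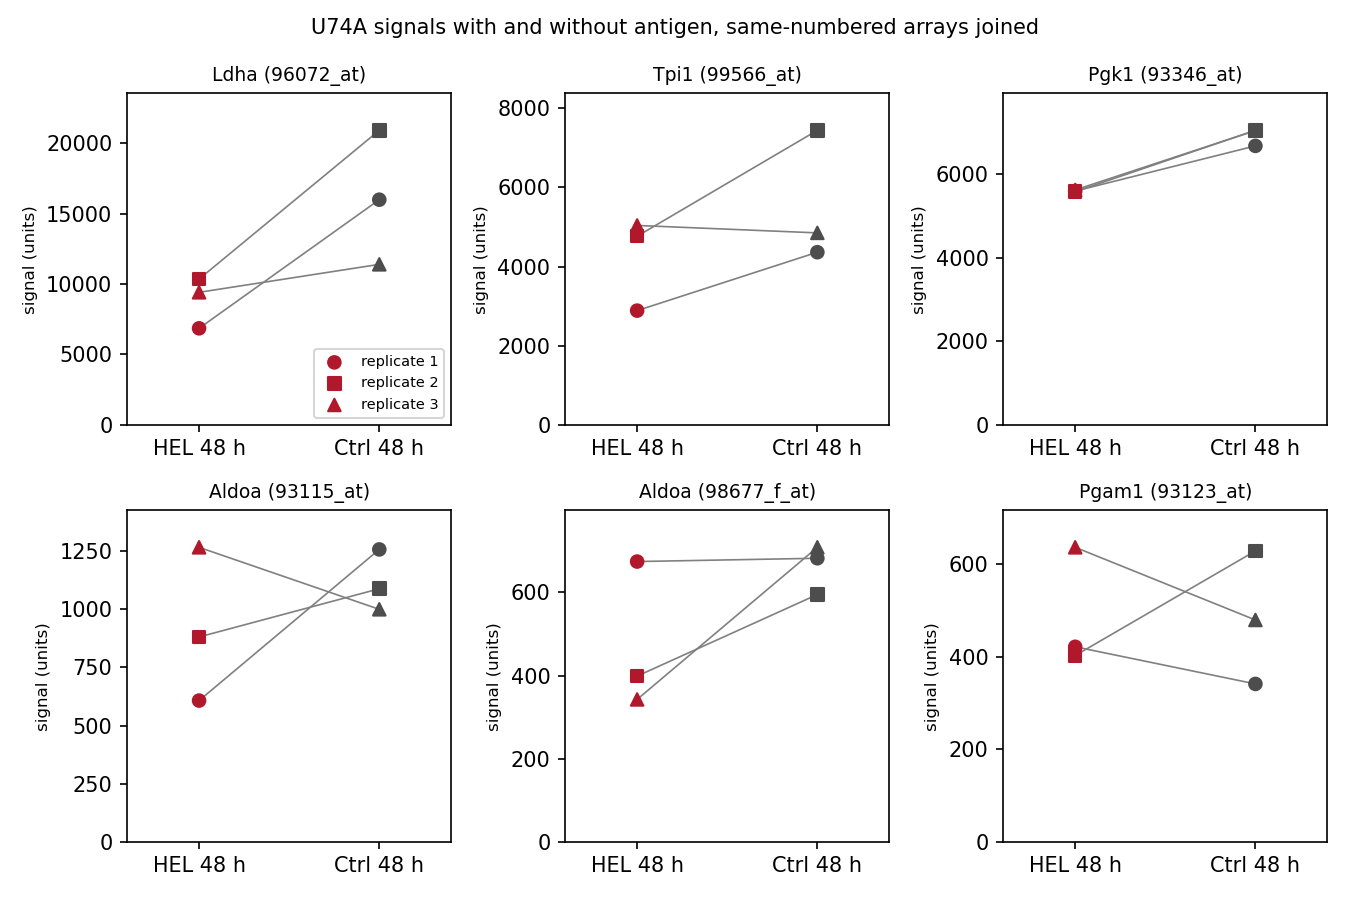
Signal in arbitrary units (linear axes from 0) of 6 probe sets for 5 enzymes in HEL 48 h (left) and Ctrl 48 h (right) cells, 1 marker shape per replicate number, with a line between arrays of the same number. Ldha and Pgk1 lines go the same way in all 3 pairs, higher in Ctrl 48 h, while Aldoa by 93115_at and Pgam1 lines cross.

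Same-numbered 48 h arrays also deviated together and were read as pairs. The intervals and adjusted p-values given above came from the fit without pairs. With the replicate number as a block 0 of 12588 probe sets passed (limma). The HEL 48 h to Ctrl 48 h ratio of Ldha was 0.429, 0.495 and 0.826 in pairs 1 to 3, that of Pgk1 0.838, 0.792 and 0.798, and that of Tpi1 0.662, 0.641 and 1.04. Pairs 1 and 2 were scanned on 1 day and pair 3 on another, so the third ratio is the value of the second scan day. With scan day as a block the adjusted p of Ldha was 0.456. HEL 48 h 1 stood apart in its control probe sets. The ratio of 3′ to 5′ signal was 1.93 for Gapdh and 2.30 for Actb on that array, against at most 0.897 and 1.22 on the other 48 h arrays. Without it the Ldha difference was -0.66 (adjusted p = 0.449), that of Tpi1 -0.14 and that of Aldoa by 93115_at -0.07. Its summed B cell marker signal was 35311, against at least 69888 on the other 48 h arrays.

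The other U74A groups are given as levels. HEL-Mhi cells, taken from the IL-7 culture, had Ldha signals of 38159, 26956 and 39069.8, Pgk1 signals of 28870.4, 14527 and 31859 and Tpi1 signals of 22394, 16780.0 and 26214. Every HEL-Mhi array was above every HEL 48 h and Ctrl 48 h array for these 3 genes, which was not tested here. Aldoa and Pgam1 were blank for HEL-Mhi. In HEL-Mlo cells, by rank within each array, Ldha stood at the 99.5th to 99.7th percentile, Pgk1 at the 98.4th to 99.0th and Tpi1 at the 98.6th to 99.1st. Aldoa by 93115_at was at the 65.8th to 73.3rd percentile and Pgam1 at the 54.8th to 65.1st.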

How the data were processed

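RNA of 49 samples was read on Affymetrix U74Av2 (37 arrays) and U74A (12 arrays). The deposited intensity values are the authors' signals from Microarray Suite 5.0, 1 per probe set, scaled per array. No detection calls were used here, and 0 columns were left unmapped. Signals were raised to a floor of 20, taken to log2 and tested within each table with limma 3.58.1 in R 4.3.3 (lmFit, eBayes), with Benjamini-Hochberg adjustment over all probe sets and calls at an adjusted p under 0.05. The 3 interferon groups shared 1 fit, other comparisons were fitted on their own groups, and interactions on the groups they name. FxE HA against FxE Ctrl had hours of culture (24 or 48, from a legend by replicate number) as a term, as did both interactions with the FxE cells. Scripts were tested on simulated data. The number of arrays limits the precision, and the p-values measure the spread between arrays.

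Of U74Av2 probe sets 8724 matched 1 gene, 346 several and 907 none. Of U74A probe sets 10276 matched 1 gene, 363 several and 1949 none, 2611 were blank for HEL-Mhi, and control sets were left out. Probe set names came from GEO's platform annotation and promoters from RefSeq (GRCm38.p6).

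Every probe set of the 6 enzymes was named. Of each gene list up to 4 called genes per comparison with the smallest adjusted p were named, and of the likeness ranking the first 6. A gene with several probe sets was counted once, through its brightest set on the arrays fitted. The members and lists were chosen with earlier results of these data known. Same numbers were read as pairs only where the correlation of every pair's deviations exceeded 0.1: Cre-Mlo with Cre-Mhi (0.177 to 0.474, in the same cultures) and HEL 48 h with Ctrl 48 h (0.111 to 0.239), both found from the data. Alternatives were another floor, a pseudocount, a filter on low signals, quantile normalization, blocks, left-out arrays and the methods' t-test.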

Additional observations from a re-analysis of the deposited data

Results flagged for a closer look

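Single arrays that stood apart from their group were sought for each of the 3 U74Av2 enzymes in groups of 4 or more arrays. The gap of the highest or lowest array to its nearest neighbor was divided by the range of the group, and in 15 gene and group combinations 5 exceeded the critical share, 0.829 for 4 arrays and 0.625 for 6. Chance gives about 1 in 20 groups, and the 5 are not independent, because the same arrays recur. For Tpi1 the share was 0.935 on Cre-Mhi 4 (17232 units, next highest 4014) and 0.895 on Cre-Mlo 4 (14985, next highest 4216). For Ldha it was 0.888 on Cre-Mhi 4 (28562, next highest 10875) and 0.895 on Cre-Mlo 4 (24742, next highest 7312). For Pgk1 the lowest array stood apart in Ctrl-Mhi cells, with 0.858 on Ctrl-Mhi 2 (4846, next lowest 11412). On the log2 scale Pgk1 on Ctrl-Mhi 2 (0.904) and Tpi1 on Cre-Mhi 4 (0.848) exceeded the same limit and the other 3 did not, while Pgk1 on FxE HA 5 (6774 units, next lowest 11762), at 0.531 on the linear scale, came to 0.634 on log2, above the limit of 0.625 for 6 arrays. GFPpos 3 lies in a group of 3 and was not tested in this way.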

How the results depend on the processing

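No enzyme called in the report changed direction under any alternative. Counts of members called moved in 3 comparisons. For B6-M- against Ctrl-Mhi the count of 1 became 0 with a floor of 100 (Ldha adjusted p 0.0674), 2 with probe sets of mean signal at least 200 (Pgk1 too, adjusted p 0.0428) and 0 with the replicate number as a block (Ldha log2 1.77, adjusted p 0.119), and leaving out 1 array gave 0 to 1. For FxE HA against FxE Ctrl the count of 1 became 0 with the replicate block (Tpi1 log2 1.10, adjusted p 0.467), and leaving out 1 array gave 0 to 1. For the herbimycin A effect in GFP cells less that in FxE cells the count of 0 became 2 without GFPpos replicate 3, and leaving out any 1 array gave 0 to 2. In these comparisons the samples share only a number, and the block changed no other member call. Over all probe sets the block gave 137 calls against 1417 for B6-M- and 0 against 336 for FxE HA, 0 against 299 for FxD, 0 against 258 for GFPpos and 0 against 29 for HEL 48 h. In the fit of 3 interferon groups it gave 447 against 607 for Cre-Mlo over Cre-Mhi and 675 against 831 for Cre-Mlo over Ctrl-Mhi. That block also ties in Ctrl-Mhi arrays, which were not pairs. With pairs in a fit of Cre-Mlo and Cre-Mhi alone the count was 200. Leaving out 1 array gave 737 to 1232 calls for B6-M-, 186 to 323 for FxE HA, 0 to 125 for FxD, 1 to 91 for GFPpos, 0 to 3 for HEL 48 h, 387 to 520 for Cre-Mlo over Cre-Mhi, 581 to 751 for Cre-Mlo over Ctrl-Mhi and 1 to 5 for Cre-Mhi over Ctrl-Mhi (2 with all arrays). Other settings gave 137 to 1813 calls for B6-M-, 0 to 535 for FxE HA, 0 to 500 for FxD, 0 to 736 for GFPpos, 0 to 73 for HEL 48 h, 200 to 795 for Cre-Mlo over Cre-Mhi and 164 to 1074 for Cre-Mlo over Ctrl-Mhi. By the methods' t-test, with their fold, difference and p criteria, 1 member passed in B6-M- and 1 in FxE HA. In B6-M- it was Pgk1 and not Ldha, and in FxE HA it was Tpi1. Over all 9977 probe sets 513 passed these criteria in B6-M- and 219 in FxE HA. With Benjamini-Hochberg adjustment of the t-test 0 members passed in B6-M- and 1 in FxE HA. The cause of these moves was not tested. Signals of Pgam1 and Aldoa were lower than those of Ldha, Pgk1 and Tpi1. Without detection calls no signal was checked against background. This holds also for low means of called genes, such as Slc16a1 in Cre-Mhi (63.4) and Adm in Ctrl-Mhi cells (91.0).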
